A study of Mus musculus with 6 samples.

Results

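The 7 transcription factors described here, Pax6, Rax, Six3, Six6, Lhx2, Sox2 and Hes1, build the eye field and keep retinal progenitors dividing. They were taken by gene symbol, and all 7 were found among the 24421 rows of the deposited expression table. RNA sequencing gave their levels in 6 libraries of retinal endothelial cells from C57BL/6 mouse pups at postnatal day 7. The 3 control libraries carried Anxa3 fl/fl, that is floxed alleles of annexin A3 without a recombinase. The 3 mutant libraries carried Anxa3 fl/fl and Tie2-Cre, a recombinase driven by a promoter active in endothelial cells and in the blood lineage. Cre was present in the mutants alone, so its own effect and that of Anxa3 loss cannot be told apart. The labels do not say how many pups stand behind a library, so a p-value here rests on the spread among 6 libraries, part of which may be technical.

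The eye field is the patch of anterior neural plate from which both retinas arise. Pax6, Rax, Six3, Six6 and Lhx2 are expressed there together, each depends in part on the others, and most persist in progenitors of the optic cup. As the retina matures the factors part ways: Pax6 and Six3 stay on in amacrine and ganglion cells, whereas Rax, Lhx2, Sox2 and Hes1 stay on in Müller glia. Hes1, the repressor that Notch signalling switches on, is also expressed outside the neural retina, including in vessels.

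Of the 7, Hes1 is the one widely expressed in endothelium, so their levels are given beside markers of the cell types the libraries could hold. All 20 pan-endothelial markers were above the expression filter, at a mean of 4.78 to 5.92 on the log2(FPKM + 1) scale, FPKM being read fragments divided by the length of the gene and the depth of the library. The 10 rod markers averaged 7.78 to 8.43 on that scale, and the 12 Müller glia markers 4.36 to 4.67. The horizontal cell marker Sept4 was not found under its symbol, and every other marker of the 12 cell type lists was above 0 in at least 1 library. Among the genes with the highest mean in their list, the rod gene Sag ranged from 772 to 1265 FPKM, the endothelial tight-junction gene Cldn5 from 119 to 287 FPKM and the intermediate filament gene Vim of the Müller list from 139 to 251 FPKM. The amacrine transporter gene Slc6a9 ranged from 41.2 to 48.6 FPKM, the horizontal cell factor Prox1 from 51.5 to 61.2 FPKM and Isl1, in both the ganglion and the bipolar list, from 51.2 to 76.1 FPKM. In other lists these were the cone gene Gngt2 at 28.99 to 85.3 FPKM, Rgs5 of pericytes at 120.2 to 214.6 FPKM, Pdgfra of the astrocyte list at 6.93 to 9.46 FPKM and Ttr of the lens and pigment epithelium list at 0.778 to 6.23 FPKM. Transcripts of neural retina were present in all 6 libraries, and in bulk RNA fewer cells of a type and less RNA per cell cannot be told apart. Anxa3 was lower in every mutant library, at 9.78 to 15.1 FPKM against 17.7 to 43.4 FPKM in controls, with a log2 difference of -0.94, an unadjusted p of 0.0204 and a limma adjusted p of 0.9998. The libraries held 21386054 to 30904076 reads over genes, and between 394 reads (Sox2 in mutant replicate 1) and 4810 reads (Rax in mutant replicate 2) lay behind a value of a member.

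Promoter sequences of 5 of the 7 factors were taken from RefSeq tables of build GRCm38.p6, and the 250 bases before the start site are shown for each. Those of Rax and Hes1 were not examined. Whether these sequences bear on the levels of the factors was not tested. The start sites are those of RefSeq, and not all are the gene starts of GENCODE M21 given below. The Six3 window lies inside the gene, which starts at 85613608 there. The Sox2 window ends at 34649994, before a gene start of 34650405. Capitals mark CCAAT, the CCAAT box bound by the factor NF-Y, on either strand (ATTGG where it lies on the other strand). Six3, chr17:85620584-85620833, plus strand; Six6, chr12:72939632-72939881, plus strand; Sox2, chr3:34649745-34649994, plus strand; Pax6, chr2:105668646-105668895, plus strand; Lhx2, chr2:38339031-38339280, plus strand.
Six3: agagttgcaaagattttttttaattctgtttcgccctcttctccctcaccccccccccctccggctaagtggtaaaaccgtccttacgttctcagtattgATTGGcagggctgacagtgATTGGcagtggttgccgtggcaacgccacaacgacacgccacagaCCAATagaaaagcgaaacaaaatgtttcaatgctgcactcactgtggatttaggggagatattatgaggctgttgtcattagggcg
Six6: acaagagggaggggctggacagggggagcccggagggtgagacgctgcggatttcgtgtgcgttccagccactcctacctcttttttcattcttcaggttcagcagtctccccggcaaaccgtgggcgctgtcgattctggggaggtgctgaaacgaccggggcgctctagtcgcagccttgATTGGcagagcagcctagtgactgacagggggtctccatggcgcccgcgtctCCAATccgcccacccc
Sox2: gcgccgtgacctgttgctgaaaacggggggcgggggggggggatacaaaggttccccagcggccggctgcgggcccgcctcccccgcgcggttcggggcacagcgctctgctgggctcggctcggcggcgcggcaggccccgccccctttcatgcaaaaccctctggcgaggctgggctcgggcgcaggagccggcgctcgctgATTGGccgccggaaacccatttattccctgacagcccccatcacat
Pax6: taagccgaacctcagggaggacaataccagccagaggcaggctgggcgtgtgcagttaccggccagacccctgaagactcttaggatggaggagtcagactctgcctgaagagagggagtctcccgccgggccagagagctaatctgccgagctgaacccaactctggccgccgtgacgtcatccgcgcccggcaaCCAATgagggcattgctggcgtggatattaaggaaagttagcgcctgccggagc
Lhx2: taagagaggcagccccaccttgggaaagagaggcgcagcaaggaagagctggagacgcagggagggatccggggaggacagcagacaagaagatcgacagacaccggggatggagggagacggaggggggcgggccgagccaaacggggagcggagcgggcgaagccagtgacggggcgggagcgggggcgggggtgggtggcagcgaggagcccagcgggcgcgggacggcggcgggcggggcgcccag

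The CCAAT box occurred 3 times before Six3, at 150, 131 and 86 bases from the start site, and 2 times before Six6, at 68 and 16 bases. Single matches lay 46 bases before the start of Sox2 and 54 bases before that of Pax6. Of 32851 mouse promoters of the same length, 33.9% held at least 1 match on either strand. Lhx2 and Pax6 each have a second start site in the tables, and neither of those windows nor the first Lhx2 window held a match. The longest stretch shared by the Six3 and Six6 windows was TTGATTGGCAG, which holds a CCAAT box on the other strand and stood in 8 of the 32851 promoters on the strand of the gene. That word was found by searching these windows, and is a description of them. Other short motifs were searched on both strands. The Notch partner Rbpj motif TGGGAA was in both Lhx2 windows and in 21.6% of promoters, and the Hes-binding N-box CACNAG was in the Six6 window, the second Pax6 window and 36.7% of promoters. The homeodomain motif TAATTA was in none of the 7 windows and in 4.84% of promoters, and TATAAA in none of them and in 12.4%. The windows were GC-rich for both Lhx2 start sites (72.8% and 68.4%) and Sox2 (72%), intermediate for Six6 (62.8%) and the first Pax6 site (60.8%), and lowest for Six3 (48.8%) and the second Pax6 site (47.6%), beside a median of 52.4% over all promoters.

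All 7 factors reached 1 FPKM in at least 3 libraries and so entered the test over 13622 genes. Their levels per length spanned more than an order of magnitude. Rax was the most abundant, followed by Pax6, Hes1, Six3, Lhx2, Six6 and Sox2, with means over the 6 libraries of 97.96, 28.3, 15.7, 15.3, 11.4, 11.3 and 7.21 FPKM. Rax had a higher mean than 97.7% of the genes tested, Pax6 than 80.8% and Sox2 than 34.8%. The step from Rax to Pax6 held in 6 of 6 libraries, with ratios of 2.95 to 4.81, and so did that from Pax6 to Hes1, with ratios of 1.43 to 2.14. Hes1 and Six3 were not separated, since Hes1 was the higher in 3 of 6 libraries. Six3 exceeded Lhx2 in 6 of 6 libraries, although their ranges over libraries overlapped. Lhx2 and Six6 were not separated either, with Lhx2 the higher in 4 of 6. Six6 exceeded Sox2 in 6 of 6 libraries, with no overlap of the ranges. These orders rest on the length over which reads were counted. The steps in the values gave counted lengths of 1669 bases for Rax and 4761 for Pax6, whereas exons of all annotated transcripts cover 5846 and 11694 bases in GENCODE M21.

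**Figure D1:**
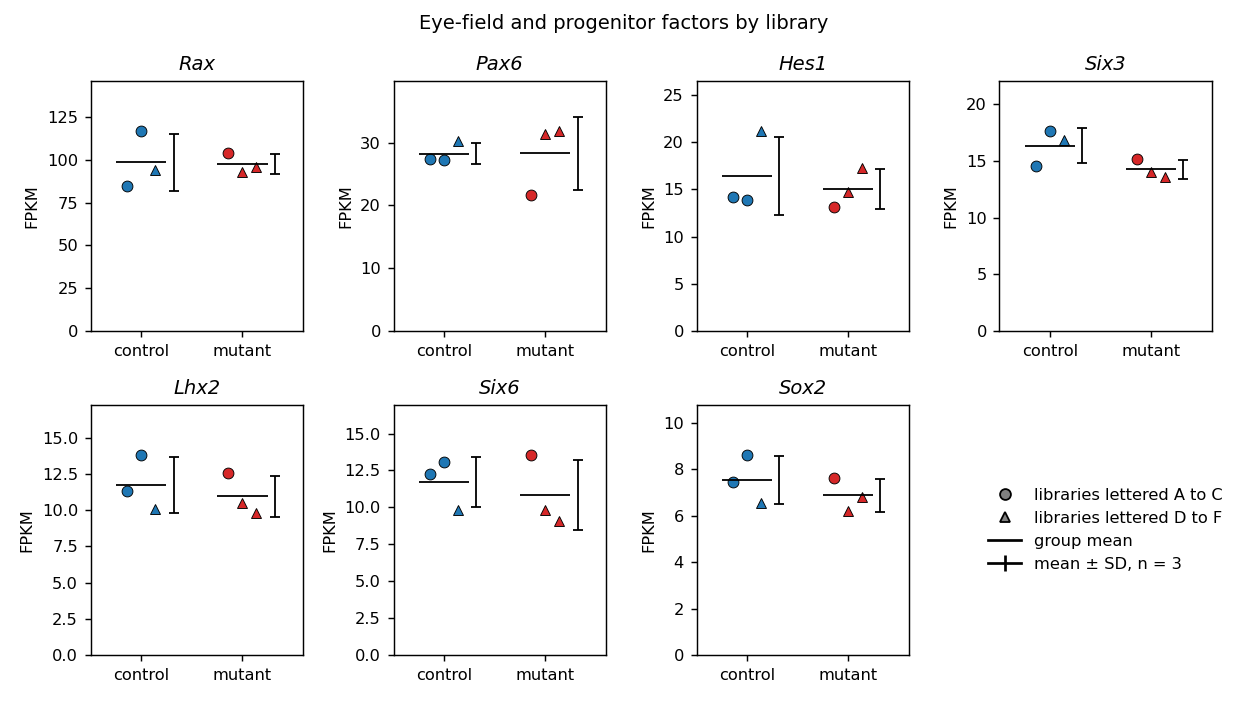
Expression of the 7 factors in FPKM (y axis, from 0) in 3 control (blue) and 3 mutant (red) libraries, 1 panel per gene, with circles for libraries lettered A to C and triangles for those lettered D to F in the labels. Horizontal lines are group means and bars are SD (n = 3); in each panel the control and mutant values overlap.

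None of the 7 factors differed between mutant and control libraries by an amount that passed the test. Of the 7, 0 had an adjusted p under 0.05 with limma, beside 0 of 13622 genes or 0% of all, and 0 of 7 had an unadjusted p under 0.05, beside 165 genes. Limma voom on reads recovered from the values also called 0 genes. The values of control and mutant libraries overlapped for 7 of 7 factors, whereas they did not overlap for 4.35% of all genes. Each of the 7 differences was below 0, with a median of -0.10 on the log2(FPKM + 1) scale. Differences below 0 were found for 52.5% of all genes, whose median was -0.01, and the signs turned with single libraries for 4 of the factors, as given for each below. The members share libraries, so 7 signs are not 7 observations. With libraries weighted by their fitted precision, differences were larger for Sox2 (-0.34), Six6 (-0.33), Lhx2 (-0.29), Six3 (-0.27) and Rax (-0.22), and above 0 for Pax6 (0.17) and Hes1 (0.05). Limma adjusted p-values were then 0.0625 to 0.0729 for Sox2, Six6, Six3 and Lhx2, and 0 of 7 passed. The weights were 7.00 for mutant replicate 2 and 3.35 for control replicate 2, and at most 0.747 for any other library. That fit therefore rests mostly on those libraries, which are lettered E and C and so lie on different sides of the division by letters described below.

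Marker lists also differed in sign between genotypes, and their part in the values of the factors was not tested. All 20 pan-endothelial markers had a difference below 0, with a median of -0.16, as did 8 of 9 microglia markers, with a median of -0.23. On the log2(FPKM + 1) scale the endothelial list stood at 4.92, 4.78 and 5.92 in controls, in order of replicate. In mutants it stood at 4.89, 5.02 and 5.26, so only control replicate 3 lay above all mutants. Differences were above 0 for 9 of 10 bipolar markers (median 0.14), 8 of 9 cone markers (median 0.20) and 7 of 10 rod markers (median 0.06). The same held for 7 of 9 ganglion cell markers (median 0.09) and 7 of 9 pericyte markers (median 0.05). Control replicate 3 had the lowest bipolar, cone and rod list levels, at 4.14, 3.5 and 7.78. Mutants ranged from 4.52 to 4.6, 3.85 to 4.2 and 7.97 to 8.43, and control replicates 1 and 2 lay within those ranges. The lowest ganglion level was in control replicate 1 (2.32), and the highest pericyte level in control replicate 3 (3.89). Whether these signs rest on single libraries was not tested. Müller glia markers, 6 of 11 above 0, and amacrine markers, 4 of 10, were divided. Of the markers tested in these lists, 0 passed the limma test, and the control and mutant libraries did not overlap for 1 bipolar and 1 cone marker.

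Pax6, a paired-box and homeodomain factor without which no eye forms, is located on chromosome 2, positions 105668900 to 105697364, plus strand (GRCm38, as for all positions here). In order of replicate, Pax6 stood at 27.4, 27.2 and 30.2 FPKM among controls and at 21.6, 31.4 and 31.8 FPKM among mutants. Mutant replicate 1 was the lowest of the 6 and the other 2 mutant libraries were the highest, so the mutants enclosed the controls. Control and mutant means were 28.3 ± 1.68 and 28.3 ± 5.76 FPKM (SD, n = 3 each). The log2 difference was -0.02 (standard error 0.151), and its 95% confidence interval from limma ran from -0.37 to 0.33. Without mutant replicate 1 it was 0.16, and without control replicate 3 it was 0.03.

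Rax, the retina and anterior neural fold homeobox factor needed for the optic vesicle, is found on chromosome 18, minus strand, positions 65928277 to 65939787. Its values were 84.5, 116.7 and 93.9 FPKM in the controls and 104, 92.6 and 95.98 FPKM in the mutants, in order of replicate. Both extremes were control libraries, and all mutants lay between them. The group means, 98.4 ± 16.5 and 97.5 ± 5.89 FPKM (SD, n = 3 each), gave a log2 difference of 0.00 with an interval from -0.31 to 0.31. On the linear (FPKM + 1) scale that interval runs from 0.804-fold to 1.24-fold. An antisense gene, Raxos1, overlaps 1604 exonic bases of Rax in the annotation and has no row in the table. Whether its reads entered the Rax value cannot be told apart without strand.

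Six3 and Six6 are paralogous homeodomain factors that repress target genes together with Groucho corepressors of the Tle family. Six3 showed 14.6, 17.6 and 16.8 FPKM among controls against 15.2, 13.98 and 13.6 FPKM among mutants. Only mutant replicate 1 reached into the range of the controls, above control replicate 1. Means were 16.3 ± 1.57 and 14.2 ± 0.840 FPKM (SD, n = 3 each), and the log2 difference of -0.18 (standard error 0.104, interval from -0.42 to 0.06) was the largest in size of the 7 in this fit. With the letters as a block that of Hes1 was larger (-0.24 against -0.17), and with library weights those of Sox2, Six6 and Lhx2 were. The unadjusted limma p of Six3 was 0.117 and its limma adjusted p 0.9998. Its sign was negative under each of the 17 alternatives run, as was that of Sox2. Those alternatives reuse the same libraries, so they are not independent. Six6 gave 12.3, 13.1 and 9.82 FPKM in controls and 13.6, 9.85 and 9.11 FPKM in mutants. Here the highest library was a mutant and the lowest was also a mutant. The Six6 log2 difference was -0.11 (interval from -0.50 to 0.27) over means of 11.7 ± 1.70 and 10.8 ± 2.39 FPKM (SD, n = 3 each), and it moved to -0.01 without mutant replicate 3 and to -0.27 without mutant replicate 1. Both are plus-strand genes, Six3 on chromosome 17 at positions 85613608 to 85629302 and Six6 on chromosome 12 at positions 72939892 to 72944899.

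Lhx2, a LIM-homeodomain factor that carries the optic vesicle to the optic cup, is on chromosome 2, plus strand, positions 38339281 to 38369733. It was measured at 11.3, 13.8 and 10.1 FPKM in the controls and 12.6, 10.5 and 9.80 FPKM in the mutants. The mutant libraries lay within or just under the span of the controls. The log2 difference was -0.09 (interval from -0.42 to 0.24) and became 0.03 without control replicate 2. Sox2, the SoxB1 factor that maintains neural progenitors, is a plus-strand gene on chromosome 3, positions 34650405 to 34652461. Its values were 7.44, 8.63 and 6.56 FPKM in controls and 7.62, 6.21 and 6.82 FPKM in mutants. The lowest value was a mutant and the highest a control, with the remaining 4 mixed. The log2 difference of Sox2 was -0.11 (interval from -0.42 to 0.19), and it lay between -0.20 and -0.02 over single omitted libraries.

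Hes1, on chromosome 16, plus strand, positions 30064384 to 30067796, varied the most of the 7. It stood at 14.1, 13.9 and 21.1 FPKM in controls and at 13.2, 14.7 and 17.3 FPKM in mutants. Control replicate 3 was the highest of the 6, and mutant replicate 3 the next. Means were 16.4 ± 4.11 and 15.1 ± 2.09 FPKM (SD, n = 3 each), with a log2 difference of -0.10 (interval from -0.50 to 0.30). Without control replicate 3 the difference was 0.09. Control replicate 3 was also the library with the highest pan-endothelial level, 5.92 beside 4.78 to 5.26 in the other 5 on the log2(FPKM + 1) scale. In a fit with that level as a covariate the Hes1 difference was -0.01, whereas with the letters as a block it was -0.24. The same covariate gave -0.175 for Six6, -0.139 for Lhx2 and -0.151 for Sox2, each larger in size than without it. It gave -0.182 for Six3, -0.021 for Rax and 0.017 for Pax6. Whether the endothelial level bears on the values of Hes1 was not tested.

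**Figure D2:**
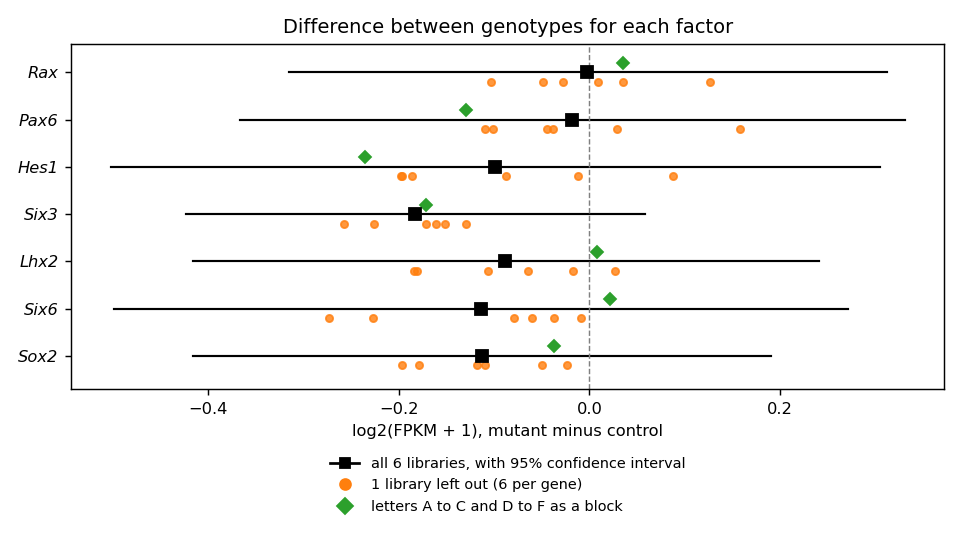
Difference between mutant and control libraries on the log2(FPKM + 1) scale (x axis) for each factor (y axis). Black squares and lines are the limma estimate over 6 libraries with its 95% confidence interval, orange points leave out 1 library each, and green diamonds use the letters of the labels as a block; the intervals of all 7 genes include 0.

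The intervals bound what these libraries can show. For Six3 the fold on the (FPKM + 1) scale ran from 0.746 to 1.04, for Sox2 from 0.750 to 1.14, for Lhx2 from 0.749 to 1.18, for Six6 from 0.708 to 1.21, for Hes1 from 0.706 to 1.24 and for Pax6 from 0.776 to 1.26. A p that misses the threshold does not show that levels were alike within those bounds.

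Divided by the letters in the labels instead of by genotype, the libraries did not overlap for 5 of the 7 factors. The libraries lettered A, B and C are control replicate 1, mutant replicate 1 and control replicate 2, and those lettered D, E and F are control replicate 3, mutant replicate 2 and mutant replicate 3. No source used here gives the meaning of the letters. Six6, Lhx2 and Sox2 were lower in each of D to F than in each of A to C, as were 20.0% of the 13622 genes. For Six6 the ranges were 9.11 to 9.85 FPKM and 12.3 to 13.6 FPKM, a mean ratio of 0.739. Lhx2 lay at 9.80 to 10.5 FPKM in D to F and 11.3 to 13.8 FPKM in A to C, a ratio of 0.806. For Sox2 the corresponding ranges were 6.21 to 6.82 FPKM and 7.44 to 8.63 FPKM, a ratio of 0.827. Pax6 and Hes1 were higher in each of D to F, as were 15.1% of all genes. Pax6 ran from 30.2 to 31.8 FPKM there against 21.6 to 27.4 FPKM in A to C, a ratio of 1.23, and Hes1 from 14.7 to 21.1 FPKM against 13.2 to 14.1 FPKM, a ratio of 1.29. Rax and Six3 overlapped between the sets of letters, at ratios of 0.925 and 0.936. These are descriptions without a test, since the division was known from earlier results of these data.

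Because their values did not overlap between the sets of letters, the same 5 factors had to move in the same direction within each genotype. The ratios below therefore describe sizes only. In controls the ratio of replicate 3 to the mean of replicates 1 and 2 was 0.775 for Six6, 0.799 for Lhx2, 0.816 for Sox2, 1.11 for Pax6 and 1.51 for Hes1. In mutants the ratio of the mean of replicates 2 and 3 to replicate 1 was 0.699, 0.810, 0.856, 1.46 and 1.22 in that order. With the letters as a block, the genotype differences were 0.02 for Six6, 0.01 for Lhx2, -0.04 for Sox2, -0.13 for Pax6, -0.24 for Hes1, 0.04 for Rax and -0.17 for Six3, and 0 of 7 passed.

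Markers of some cell types lay apart along the same division, and their part in these patterns was not tested. The counts are to be read beside the 20.0% of all genes that were lower and the 15.1% that were higher in D to F. All 10 rod markers were lower in each of D to F than in each of A to C, with a list level of 7.78 to 8.02 against 8.19 to 8.43 on the log2(FPKM + 1) scale. Of 11 tested Müller glia markers 4 were lower in the same way, at list levels of 4.36 to 4.66 against 4.60 to 4.67. Of 20 pan-endothelial markers 13 were higher in D to F, at 5.02 to 5.92 against 4.78 to 4.92. Of 10 tested amacrine markers 2 were higher, a share near that of all genes, at 3.15 to 3.24 against 2.77 to 3.15. Further counts were 3 of 9 cone and 3 of 10 bipolar markers lower, and 3 of 9 ganglion cell, 1 of 9 pericyte and 2 of 6 lens and pigment epithelium markers higher. Of 5 horizontal cell markers 1 was lower and 1 higher, and of 9 microglia and 4 astrocyte markers 0 lay apart in either direction. Mutant replicate 1, where Pax6 was lowest, also had the lowest amacrine level, 2.77 beside 3.04 to 3.24 in the other libraries, whereas its level of horizontal cell markers, 2.09, lay within the range of the rest, from 2.06 to 2.14. Mutant replicate 1 was also lowest for microglia (1.82 beside 2.29 to 2.69) and for lens and pigment epithelium markers (0.74 beside 0.86 to 1.36). The amacrine gene Slc6a9, at 44.97 FPKM there, lay within the range of the rest, 41.2 to 48.6 FPKM.

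**Figure D3:**
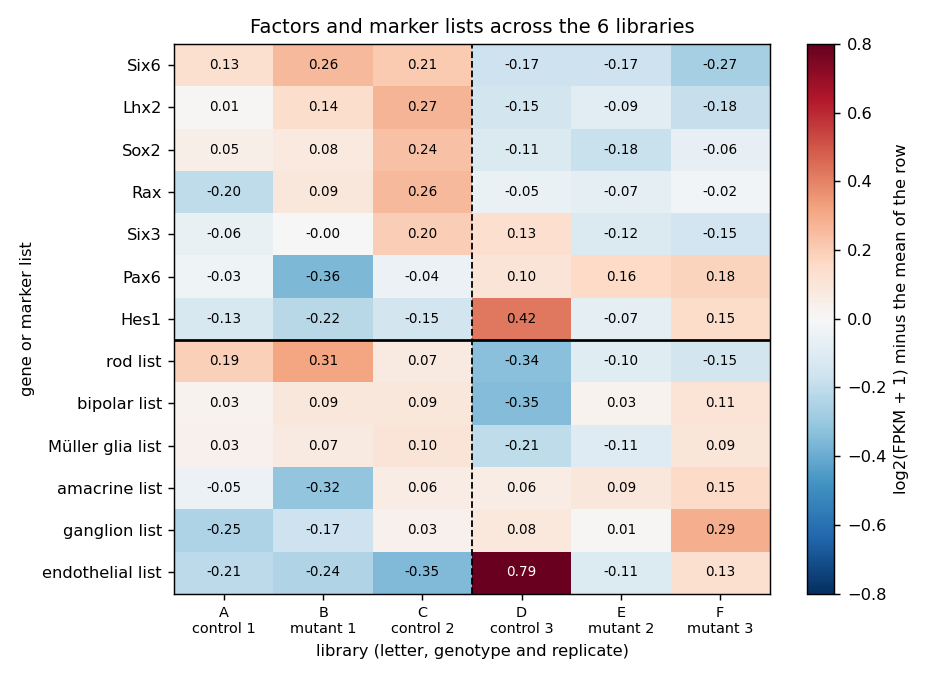
Levels of the 7 factors (top) and the means of 6 marker lists (bottom) in each library, as log2(FPKM + 1) minus the mean of the row (colour and printed value), with libraries ordered by letter on the x axis. Six6, Lhx2 and Sox2 are above their mean in A to C and below it in D to F, Pax6 is the reverse, Hes1 is below its mean in A to C and above it in D and F, and the endothelial list peaks in D.

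Ratios between factors within a library cancel its depth and show which factors kept step. The ratio of Lhx2 to Sox2 ranged from 1.44 to 1.70 and that of Lhx2 to Six6 from 0.923 to 1.08, with coefficients of variation of 5.97% and 7.00%. The ratio of Six6 to Sox2 ranged from 1.34 to 1.78, with a coefficient of variation of 9.68%. Rax kept step with Sox2 and Lhx2 about as closely, at 8.94% and 9.48%. Six3 and Six6, although paralogues, kept step less closely, with ratios of 1.12 to 1.35 among A to C and 1.42 to 1.71 among the others. Of the 10 ratios between factors that were computed, the most variable were those of Pax6 to Six6 (28.6%) and Hes1 to Sox2 (27.3%). Pax6 to Six6 was 1.6 to 2.23 among A to C and 3.07 to 3.50 among D to F, and Hes1 to Sox2 was 1.61 to 1.90 and 2.37 to 3.22 in the same order. Pax6 and Hes1 were higher and Six6 and Sox2 lower in each of D to F, so these ratios had to lie apart by letter. By genotype, the mean ratio of Pax6 to Six6 was 2.46 in controls and 2.76 in mutants, and that of Hes1 to Sox2 was 2.24 and 2.21.

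**Figure D4:**
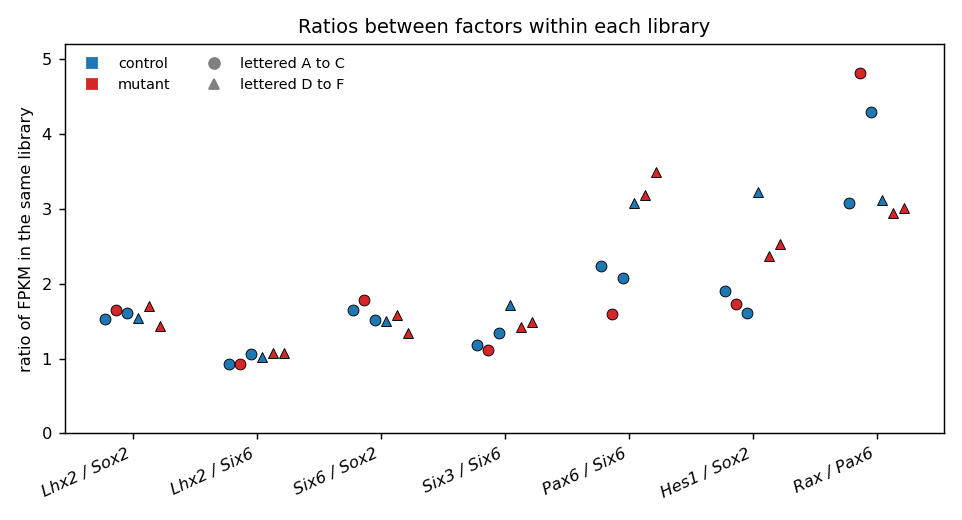
Ratios of FPKM between pairs of factors (x axis) in the same library (y axis, from 0), blue for control and red for mutant, circles for libraries lettered A to C and triangles for D to F. Of the 7 ratios plotted, those among Lhx2, Six6 and Sox2 vary least, whereas for Pax6 to Six6 and Hes1 to Sox2 the triangles lie above the circles and the colours overlap.

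The factors varied as much as the median gene of like level or more. The coefficient of variation over the 6 libraries was 19.1% for Hes1, 17.0% for Six6, 13.9% for Lhx2, 13.4% for Pax6, 12.1% for Sox2, 11.3% for Rax and 10.5% for Six3. Among 10004 tested genes with a mean of 5 to 200 FPKM the median was 10.5%, with quartiles of 7.51% and 14.8%. Hes1 varied more than 86.2% of those genes, Six6 than 82.0% and Six3 than 50.3%, with the other 4 between.

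The nearest expression profiles were sought among 10096 other genes of at least 5 FPKM, by the root mean square difference between profiles centred on their means, in log2 units over the 6 libraries. With so many genes and 6 libraries, close profiles are found for any gene, and the distances are descriptions. Among the members, Lhx2 and Sox2 were closest to each other (0.073) and Six6 was closest to Lhx2 (0.086), whereas Pax6 and Hes1, each the nearest member to the other, were apart by 0.180. Over all genes the profile of Six6 was nearest to Pdik1l (0.019) and to Spop (0.021), an adaptor of a ubiquitin ligase. Lhx2 was nearest to BC022687 (0.025) and Rasl10b (0.030), and Sox2 to Slc25a44 (0.037) and Dolk (0.038). Pax6 was nearest to Slc2a4rg-ps (0.034) and the calcium-binding protein Cabp1 (0.035), which had its lowest value, 25.5 FPKM, in mutant replicate 1 as well. For Rax they were Wfs1 (0.037) and Lrfn3 (0.039), for Six3 Chp1 (0.030) and Lrrc8d (0.037), and for Hes1 Sumf1 (0.027) and the kinesin Kif1c (0.034), which peaked at 23.4 FPKM in control replicate 3.

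Noncoding or antisense neighbours of 4 factors were measured too, and reads of overlapping genes cannot be told apart where strand was not used. Six3os1, transcribed on the strand opposite to Six3, overlaps 106 of its exonic bases and was the more abundant of the pair, with control and mutant means of 19.5 ± 1.31 and 19.9 ± 2.58 FPKM (SD, n = 3 each). It was higher than Six3 in 6 of 6 libraries, with Six3 to Six3os1 ratios of 0.639 to 0.916. The gene 4930447C04Rik runs head to head with Six6 and overlaps 192 of its exonic bases. Its control mean was 12.8 ± 1.86 FPKM and its mutant mean 15.4 ± 2.85 FPKM, a log2 difference of 0.25 with an interval from -0.13 to 0.62, opposite in sign to that of Six6. Sox2ot, on the same strand, contains the whole of Sox2 in an intron and measured 2.83 ± 0.457 and 2.77 ± 0.121 FPKM. Pax6os1 measured 1.19 ± 0.254 and 1.43 ± 0.0777 FPKM, from 32 to 63 reads a library. Of these 4 RNAs 0 passed the limma test, and Pax6os1 was the one whose groups did not overlap.

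Other eye-field genes gave no call. Of 18 listed, 12 were tested and 0 passed, 6 with a difference above 0 and 6 below, with a median of 0.01. Vax2, a factor of the ventral retina, averaged 11.7 ± 1.69 FPKM in controls against 9.78 ± 1.45 FPKM in mutants, and the values below follow in that order. Tbx3 was at 5.89 ± 0.417 and 5.11 ± 0.280 FPKM, without overlap between the groups. The other gene of the list without overlap, Mab21l2, named after its values were seen, lay the opposite way, at 9.25 ± 0.178 and 9.92 ± 0.410 FPKM. Meis1, a homeodomain factor that acts on Pax6, was at 31.4 ± 4.80 and 34.3 ± 2.31 FPKM, and Six5 at 1.57 ± 0.347 and 1.29 ± 0.0196 FPKM (SD, n = 3 each). Otx2, named here after its values were seen, had the highest mean of the list. Kept on in photoreceptors and bipolar cells, it averaged 202 ± 48.1 and 197 ± 34.4 FPKM (SD, n = 3 each), and it was lower in each of D to F than in each of A to C.

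Further progenitor genes were mostly low. Of 15 listed, 7 were tested, and the other 8, Fgf15, Foxn4, Atoh7, Sox1, Sox3, Lin28b, Hmga2 and Olig2, named for that reason alone, stayed under the filter. Of the 7 tested, 0 passed, with 1 difference above 0, 6 below and a median of -0.07. Ccnd1, the cyclin that drives progenitor division, had the smallest unadjusted p of the list, 0.0592 with limma. Its controls were at 31.7, 31.5 and 38.2 FPKM and its mutants at 29.8, 28.6 and 27.5 FPKM. The groups did not overlap, and the log2 difference was -0.23 (standard error 0.102), for a limma adjusted p of 0.9998. Neurog2, a proneural factor, measured 3.37 ± 1.08 and 2.73 ± 0.751 FPKM, and the SoxE factors Sox8 and Sox9, which persist in Müller glia, 8.43 ± 1.99 and 7.84 ± 1.11 FPKM and 6.58 ± 1.17 and 6.86 ± 0.787 FPKM (SD, n = 3 each).

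Genes around Hes1 in the Notch pathway were all above the filter. Of 18 tested, 0 passed, with 2 differences above 0, 16 below and a median of -0.08. Several of these genes are also expressed in vessels, and the 20 pan-endothelial markers were all below 0 as well, with a median of -0.16. The mean level of the Notch list was highest in control replicate 3, at 4.13 beside 3.73 to 3.84 in the other libraries on the log2(FPKM + 1) scale. That library also had the highest endothelial level, and whether the signs of either list rest on it was not tested. Single Notch genes differed there: Jag1 had its highest value, 32.5 FPKM, and Rbpj its lowest control value, 8.90 FPKM. Rbpj, the DNA-binding partner through which Notch acts on Hes1, averaged 9.14 ± 0.234 FPKM in controls against 8.04 ± 1.46 FPKM in mutants. The coactivator Maml1 was at 16.4 ± 1.40 and 14.8 ± 2.21 FPKM, the ligand Jag1 at 25.7 ± 5.88 and 22.9 ± 0.921 FPKM, and the effector Hey1 at 6.84 ± 1.59 and 6.06 ± 0.463 FPKM (SD, n = 3 each). Of the 13 tested cofactors out of 17 listed, 0 passed, with 5 differences above 0, 8 below and a median of -0.02. The Groucho corepressor Tle4 measured 12.6 ± 0.632 and 11.2 ± 0.204 FPKM, without overlap between the groups, and Tle2 23.3 ± 4.69 and 26.4 ± 2.14 FPKM. Geminin (Gmnn), a replication regulator that binds Six3, was at 3.90 ± 0.416 and 4.82 ± 1.43 FPKM, and the POU factor Pou3f2 at 1.73 ± 0.359 and 1.44 ± 0.394 FPKM (SD, n = 3 each).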

How the data were processed

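Per the labels' protocols, the 3 control and 3 mutant libraries were prepared with Illumina's TruSeq kit. The values the authors deposited are FPKM, in a column for each library. STAR 2.5.0b, bedtools 2.17.0, Cufflinks 2.2.1, DESeq2 and build mm10 are named in the submitters' processing notes, without roles. The annotation and any filter or use of strand: not given in the sources used here.

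Mutant and control libraries were compared in R 4.3.3 by limma 3.58.1 (trended prior, two-sided) on log2(FPKM + 1), for 13622 genes of at least 1 FPKM in at least 3 libraries, at a threshold of 0.05 after Benjamini-Hochberg adjustment. This scale understates changes of low genes. Reads were recovered with Python 3.11.15, numpy 2.4.6 and pandas 2.3.3 from the value steps, with depth set by miRNA genes. Whole reads came out for 16491 of the 16491 rows above 0 in every library, to within 0.002 reads at low and at most 0.05 reads at high counts. Recovered lengths are the smallest that give whole reads. The fit was also tested on simulated data. Figures used matplotlib 3.10.9.

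Positions and overlaps are from GENCODE M21 (GRCm38, the assembly of mm10), and promoters from RefSeq. The members and gene lists were chosen with earlier results of these data known. Named besides the members were Anxa3, overlapping RNAs, the 4 genes of smallest p in each of 4 lists, and for each member the 2 nearest profiles. The gene of highest mean in each marker list was named too, except for a gene that is not reported here. Other names are marked where they stand. Alternatives were another pseudocount, filter or normalization, blocks by replicate or letter, a robust prior, library weights, an endothelial covariate, limma voom on recovered reads, a threshold of 0.1 and the omission of each library.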

Additional observations from a re-analysis of the deposited data

How the results depend on the processing

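The count of factors past the threshold was 0 under every one of the 17 alternative fits run, and so was that of listed pathway genes. At an adjusted p under 0.1 both were 0 in the fit over 6 unweighted libraries. The count of all genes past the threshold was 0 except with library weights, where it was 145. Those weights ran from 0.260 (control replicate 3) to 7.00 (mutant replicate 2), and adjusted p-values were under 0.1 for Sox2 (0.0625), Six6 (0.0648), Six3 (0.0654) and Lhx2 (0.0729). Differences that changed sign, on the log2 scale, were as follows. Library weights gave 0.17 for Pax6 and 0.053 for Hes1, and the endothelial covariate 0.017 for Pax6. The letter block gave 0.035 for Rax, 0.022 for Six6 and 0.008 for Lhx2. Over single omitted libraries differences ran from -0.11 to 0.16 for Pax6, -0.10 to 0.13 for Rax, -0.26 to -0.13 for Six3, -0.27 to -0.01 for Six6, -0.18 to 0.027 for Lhx2, -0.20 to -0.02 for Sox2 and -0.20 to 0.088 for Hes1. Rax turned positive without control replicate 2 (0.13), mutant replicate 2 (0.04) or mutant replicate 3 (0.01). Other normalizations, filters and pseudocounts turned 0 signs, and limma voom turned 0. The cause of each change was not tested. Deviations from the group means correlated over genes at 0.249, -0.151 and 0.390 for replicate numbers 1, 2 and 3, so the numbers were not taken to pair them, and control replicate 2 correlated best with mutant replicate 1 (0.231). With the replicate block 0 genes and 0 factors passed, and the Six3 difference was -0.18 (standard error 0.108).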

Other observations

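Six2, a paralogue of Six3 and Six6 with roles outside the retina, was under the expression filter and was singled out after its values were seen. Controls showed 0.799, 1.04 and 0.825 FPKM from 52, 53 and 45 reads, in order of replicate, and mutants 0.496, 0.320 and 0.375 FPKM from 22, 21 and 22 reads. All mutant libraries lay below all control libraries, and at so few reads a value is imprecise. Olig2, a progenitor and oligodendrocyte-lineage factor, was also under the filter and also chosen after its values were seen, at 0.891, 1.07 and 0.777 FPKM in controls and 0.604, 0.764 and 0.620 FPKM in mutants, without overlap. Its reads, which are not scaled for depth, were 67, 63 and 49 in controls and 31, 58 and 42 in mutants, and did overlap. The overlap was of mutant replicate 2 with control replicate 3, libraries of 30861790 and 25913487 reads over genes. The groups did not overlap for 4.35% of the 13622 tested genes, a share that leaves out genes under the filter such as Six2 and Olig2.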
